A study of Homo sapiens with 6 samples.

Results

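The 31 genes described here encode the enzymes of glycolysis and of the pentose phosphate pathway, their close regulators and the transcription factor subunit HIF1A. They were taken by symbol from the gene names of the deposited expression table, which holds 27918 genes and loci, and were found in 32 of its rows because TIGAR occupied 2. Expression had been measured by RNA-sequencing of poly(A) RNA from HCT-116, an established human colorectal carcinoma line, with 3 libraries from cells transfected with a control GapmeR (GapNC) and 3 from cells transfected with a GapmeR against the lncRNA CASC9 (GapC9), each at 10 nM. A GapmeR is an antisense oligonucleotide that directs RNase H to cut its target RNA, and GapC9 was a single such oligonucleotide, so its effects on other RNAs cannot be told apart from those on CASC9. Cells were collected after 24 or 48 h, since the sources give both times. Nothing in the labels says whether the 3 libraries of a group came from separate cultures, so all p-values measure the spread between these libraries, which may be technical.

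Glycolysis splits glucose into pyruvate, yielding ATP and NADH, and lactate dehydrogenase can then pass the electrons on to lactate. Glucose 6-phosphate can leave this route for the pentose phosphate pathway, whose oxidative branch makes NADPH and whose non-oxidative branch makes ribose for nucleotides, or for glycogen through phosphoglucomutase. Colorectal carcinoma cells are known for high glycolytic flux in the presence of oxygen, and HIF-1 and MYC are known to raise many of these genes.

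Values are FPKM, fragments per kilobase of transcript scaled to the mapped fragments of the library, and differences are log2 fold changes of FPKM + 0.1, GapC9 minus GapNC, from limma with Benjamini-Hochberg adjustment over the 16028 rows of the table that averaged 0.1 FPKM or more (all genes and loci tested). CASC9 itself was listed at 0, 0.0108 and 0 FPKM for the GapNC label, and at 0.0528, 0.107 and 0 FPKM for the GapC9 label (p = 0.4, two-sided exact permutation test, smallest possible p 0.1). The transcript was thus near 0 throughout and not lower in the libraries labelled GapC9, so every direction given here rests on the labels alone. The epithelial markers EPCAM, KRT8, KRT18 and KRT19 were at 62.3 FPKM or more in every library. CDH1 was at 8.43 to 14.3, CLDN4 at 4.15 to 17.1, CDX2 at 1.59 to 3.79 and KRT20 at 0.0956 to 0.302 FPKM. VIL1 and MUC2 were at or near 0, and CLDN3 was listed at 0 except in GapC9 replicate 3, at 4.21 FPKM. Of the markers of leukocytes, endothelium and fibroblasts, COL1A1 alone was above the filter, at 1.06 to 1.54 FPKM, with DCN not analysed here. If the smallest regular step among low values stands for 1 fragment, depth was about 22.7 to 24.4 M (mega) fragments per library. GapNC replicate 1 stood apart: it was the highest of the 6 libraries in 21 of the 31 member rows tested (67.7%), against 31.2% of all genes and loci tested, and the change without it is given below for the members called and for those that it moved by over 1.5 times or across 0. Without it, the changes were 0.14 for GPI, 0.04 for PFKP, 0.24 for PFKFB2, 0.03 for PFKFB3, 0.09 for ALDOA, 0.46 for PGAM1 and -0.02 for LDHA, all of which were under 0.1 in size with it.

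The genes were abundant as a group. They held 2.32%, 2.01% and 1.90% of all summed FPKM in the GapNC libraries and 2.13%, 2.06% and 1.98% in the GapC9 libraries. The group means were 2.08% ± 0.22 and 2.06% ± 0.076 (SD, n = 3 each), and the groups overlapped. GAPDH alone made up 36.4% ± 0.55 of that sum in GapNC and 36.6% ± 1.02 in GapC9 (SD, n = 3 each). Of the 32 rows, 7 had a mean of 100 FPKM or more, 15 lay between 10 and 100, 9 between 1 and 10, and FBP1 was under the filter, which left 31 rows of 30 genes in the test. The plot of levels by library shows this range and, within each gene, how close the libraries lay.

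At an adjusted p under 0.05, 2 member rows fell in GapC9, HK2 and the locus holding ALDOC, and 0 rose. Across all genes and loci tested, 5.1% fell and 1.89% rose by this rule, so the 2 of 31 lie near the background. By the fold rule (group means differing 2-fold or more, that is a ratio of 2 and up or 0.5 and down, with an unadjusted p under 0.05), the ALDOC locus alone passed, downward, against a background of 4.32% lower and 2.1% higher. At an unadjusted p under 0.05, 7 member rows were lower and 2 higher, against 16.8% lower and 9.09% higher in the background. The groups did not overlap in 10 of the 31 rows, 7 of them lower and 3 higher in GapC9, against 34.2% of all genes and loci tested. The median log2 fold change of the members was -0.07, beside -0.08 over all genes and loci tested. It was -0.09 without the second TIGAR row, which is listed at 0 in 1 library, and -0.02 to -0.19 when 1 library was left out, the ends being without GapNC replicate 1 and without GapNC replicate 3. After quantile normalization it was -0.13. Scaling the libraries to equal medians raised every change by 0.14 and the median of the members to 0.07, and it turned the split of calls over all genes from 303 higher and 817 lower to 483 higher and 427 lower. After correction for GC content the split was 1103 to 1253 and after quantile normalization 347 to 516. The members have a median GC content of 54.2%, against 50.2% for all genes and loci tested.

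Promoters are shown for a few members, namely the hexokinase that fell, the pentose phosphate enzyme nearest to the threshold, and both lactate dehydrogenases, of which LDHB did not pass the threshold (adjusted p = 0.0871 by limma) and LDHA had a change near 0. HIF-1 is known to bind DNA at the core letters ACGTG or GCGTG, and MYC at the E-box CACGTG. RefSeq promoter entries (GRCh38.p14, 250 bases before to 50 after the start, 5′ to 3′ on the gene's strand) were found for 30 of the 31 genes, as 54 windows that in part overlap. The capitals mark ACGTG and GCGTG on either strand, so that CACGT and CACGC are the same letters read from the other strand, and a CACGTG holds ACGTG on both. The windows are chr2:74833877-74834176 (plus strand) for HK2, chr1:10398814-10399113 (plus strand) for PGD, chr11:18394313-18394612 (plus strand) for LDHA and chr12:21657793-21658092 (minus strand) for LDHB.
HK2: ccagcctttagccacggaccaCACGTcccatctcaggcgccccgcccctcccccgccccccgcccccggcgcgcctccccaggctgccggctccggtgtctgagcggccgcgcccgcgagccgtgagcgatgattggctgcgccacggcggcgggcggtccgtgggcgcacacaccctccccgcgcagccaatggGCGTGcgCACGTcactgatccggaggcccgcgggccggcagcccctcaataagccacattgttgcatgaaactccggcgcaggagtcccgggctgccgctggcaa
PGD: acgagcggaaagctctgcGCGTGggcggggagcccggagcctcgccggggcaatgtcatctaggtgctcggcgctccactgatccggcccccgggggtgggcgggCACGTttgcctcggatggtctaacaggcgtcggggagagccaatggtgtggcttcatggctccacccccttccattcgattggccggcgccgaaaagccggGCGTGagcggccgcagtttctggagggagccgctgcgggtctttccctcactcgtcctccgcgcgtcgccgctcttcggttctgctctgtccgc
LDHA: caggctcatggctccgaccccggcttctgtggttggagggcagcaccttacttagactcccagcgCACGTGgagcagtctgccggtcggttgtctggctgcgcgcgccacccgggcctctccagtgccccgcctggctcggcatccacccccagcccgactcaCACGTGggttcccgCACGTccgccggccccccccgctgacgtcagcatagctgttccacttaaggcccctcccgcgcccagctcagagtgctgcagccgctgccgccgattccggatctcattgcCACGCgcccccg
LDHB: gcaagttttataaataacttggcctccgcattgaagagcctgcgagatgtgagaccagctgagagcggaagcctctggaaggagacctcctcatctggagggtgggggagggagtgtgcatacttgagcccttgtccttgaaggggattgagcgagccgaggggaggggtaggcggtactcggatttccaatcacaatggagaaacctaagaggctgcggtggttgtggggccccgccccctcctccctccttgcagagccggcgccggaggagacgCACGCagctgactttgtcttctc
The HK2 window shown holds ACGTG at 2 positions and GCGTG at 1. The PGD window holds 1 and 2. The LDHA window shown holds 2 CACGTG and 1 GCGTG, and counts 5 ACGTG positions with both strands of each CACGTG. The LDHB window holds 1 GCGTG only. HK2 and LDHA each have a second window that is not shown: that of HK2, at chr2:74834920-74835219, holds 4 ACGTG positions, 2 GCGTG and 2 CACGTG, and that of LDHA, at chr11:18396101-18396400, holds 1 GCGTG and neither of the others. ACGTG occurred in 37.0% of the 54 member windows and in 21.4% of the 35116 windows of all genes, GCGTG in 40.7% and 36.5%, and CACGTG in 13.0% and 7.26%. The member windows are also richer in GC, with a median of 68.7% against 58.7%. A match of letters is a description only.

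Hexokinases trap glucose in the cell as glucose 6-phosphate. HK2, the inducible isozyme that dominates in many tumors, lies on chromosome 2 from 74833981 to 74893359 (GENCODE, GRCh38, plus strand). It was at 21.8, 18.7 and 20.0 FPKM in GapNC and at 14.9, 14.7 and 14.3 in GapC9. All GapC9 values lay below all GapNC values, and the GapC9 libraries were close together. HK2 fell by 0.46 on the log2 scale (SE 0.10, 95% interval -0.70 to -0.22, adjusted p = 0.0474 by limma), a ratio of mean FPKM of 0.725. This call is close to the threshold: without GapNC replicate 1 the change was -0.40 (adjusted p = 0.0553 by limma), and leaving out any 1 of the 6 libraries gave adjusted p-values of 0.0553 to 0.158, under which HK2 did not pass. HK1, the widely expressed isozyme, was at 20.0 ± 3.66 in GapNC and 17.2 ± 0.173 in GapC9 (SD, n = 3 each), with a change of -0.20 (SE 0.15) whose 95% interval ran from -0.57 to 0.16. Without GapNC replicate 1 the change of HK1 was -0.07, and without GapNC replicate 2 it was -0.34. The 2 isozymes were thus at like levels in GapNC. An opposite-strand transcript, AC019069.1, overlaps exons of HK2, and without strand information their reads cannot be told apart. Such overlaps are not particular to the members for which they are named here. Exons of 15 members overlap a gene on the opposite strand, among them ALDOC, GAPDH and ENO1. Exons of 8 members overlap a gene on the same strand, among them LDHB and PGK1. A row named for the pseudogene HK2P1 is listed at up to 12.4 FPKM, against 14.3 to 21.8 for HK2, and reads could be split between the copies.

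GPI, which turns glucose 6-phosphate into fructose 6-phosphate, was at 45.8 ± 8.09 FPKM in GapNC and 45.5 ± 3.74 in GapC9 (SD, n = 3 each). Its 95% interval ran from -0.36 to 0.36, and its row also holds PDCD2L.

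Phosphofructokinase commits the sugar to glycolysis, and the tetrameric enzyme is built from liver (PFKL), muscle (PFKM) and platelet (PFKP) subunits. PFKL was at 13.0, 9.55 and 9.11 FPKM in GapNC and at 8.74, 7.25 and 6.80 in GapC9, a change of -0.46 (SE 0.18, adjusted p = 0.178 by limma). The highest GapC9 library was just under the lowest GapNC library. PFKL is the most GC-rich of these subunits at 63.7%, and its change was -0.09 after GC correction and -0.30 without GapNC replicate 1. PFKM was at 14.3, 12.1 and 12.8 in GapNC and at 10.3, 10.5 and 10.5 in GapC9, a change of -0.32 (SE 0.10, adjusted p = 0.119 by limma). Its groups did not overlap either, with the GapC9 libraries nearly equal, and SENP1 overlaps its exons on the opposite strand. PFKP, in a row that also holds PITRM1-AS1, was at 20.2 ± 2.34 and 19.3 ± 0.693 FPKM (SD, n = 3 each), with a change of -0.06 (SE 0.11). PFKP was the most abundant subunit in every library.

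The bifunctional PFKFB enzymes make and remove fructose 2,6-bisphosphate, the strongest activator of phosphofructokinase, and TIGAR, a p53 target, removes it and so favors the pentose phosphate pathway. PFKFB3, the isozyme with the highest kinase bias, was the most abundant at 12.8 ± 1.28 FPKM in GapNC and 12.4 ± 0.619 in GapC9 (SD, n = 3 each). PFKFB2 and PFKFB4 were at 1.18 to 2.60 FPKM in all libraries. The changes of the 3 PFKFB genes were -0.01 for PFKFB2, -0.04 for PFKFB3 and -0.31 for PFKFB4, each with a 95% interval that held 0, and that of PFKFB4 was -0.14 without GapNC replicate 1.

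TIGAR was the member with the highest positive change in the locus of its annotated transcripts. It was at 2.22, 2.12 and 2.38 FPKM in GapNC and at 2.997, 3.21 and 5.23 in GapC9, a change of 0.70 (SE 0.23, 95% interval 0.14 to 1.25, adjusted p = 0.123 by limma). All GapC9 values lay above all GapNC values, but GapC9 replicate 3 stood far above the other 2, and without it the change was 0.45. The second TIGAR row holds 1 transcript that the authors' assembly built beside the annotated ones. It was at 2.27, 2.67 and 0 FPKM in GapNC and at 5.79, 5.70 and 6.53 in GapC9. It is listed at 0 in GapNC replicate 3, so no fold is given for it, and its adjusted p was 0.229 by limma with all libraries and 0.0496 without that library. A gene on the opposite strand, AC006122.1, overlaps exons of TIGAR.

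Aldolase splits fructose 1,6-bisphosphate into the 2 trioses that TPI1 interconverts. ALDOA, the main aldolase of most cells, was at 208, 158 and 137 FPKM in GapNC and 176, 152 and 143 in GapC9, with a change of -0.07 (SE 0.17). TPI1 was at 203, 214 and 179 in GapNC and 182, 251 and 152 in GapC9, with a change of -0.06 (SE 0.20). The groups overlapped for both genes. ALDOC, the brain-type aldolase, lies on chromosome 17 from 28573115 to 28577264 (GENCODE, GRCh38, minus strand). The locus that holds it was at 20.3, 16.8 and 16.8 FPKM in GapNC and at 8.80, 8.04 and 7.96 in GapC9. The groups were far apart and each was tight. The locus fell by 1.11 on the log2 scale (SE 0.12, 95% interval -1.39 to -0.82, adjusted p = 0.0159 by limma), a ratio of 0.46. This row joins 5 gene names, AC005726.2, ALDOC, SPAG5, KIAA0100 and SGK494, with 56 transcripts, and none of the 5 is named in another row used here, so the fall cannot be assigned to ALDOC. SPAG5 encodes a mitotic spindle protein and is not a glycolytic gene. Without GapNC replicate 1 the change was -1.02 (adjusted p = 0.0227 by limma). The call was also kept without GapNC replicate 3, and the adjusted p rose to between 0.0586 and 0.0743 without GapNC replicate 2 or any GapC9 library.

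The payoff phase, where ATP and NADH are made, included GAPDH and ENO1, the 2 most abundant members, and none of its 6 genes had an unadjusted p under 0.05. GAPDH, which oxidizes glyceraldehyde 3-phosphate, was at 1394, 1153 and 1072 FPKM in GapNC and at 1266, 1177 and 1084 in GapC9. The change was -0.03 (SE 0.12, 95% interval -0.33 to 0.26). ENO1, the main enolase, was at 761, 509 and 503 in GapNC and at 597, 569 and 515 in GapC9, a change of -0.05 (SE 0.18). In both genes GapNC replicate 1 was the highest library, well apart from the other 5 for ENO1 and less so for GAPDH. Without GapNC replicate 1 the changes of GAPDH and ENO1 were 0.08 and 0.14. PKM, which makes pyruvate and ATP, was at 223, 197 and 178 in GapNC and at 184, 170 and 172 in GapC9, a change of -0.18 (SE 0.11), and PGK1, the first ATP-making enzyme, was at 67.5 ± 8.80 and 60.3 ± 2.64 (SD, n = 3 each). Without GapNC replicate 1 the change of PKM was -0.09, and that of PGK1 moved from -0.15 to -0.05. ENO2, the neuronal enolase and a known hypoxia gene, was at 5.21 ± 0.945 and 6.01 ± 0.227 (SD, n = 3 each), a change of 0.22 (SE 0.16) that was 0.06 without GapNC replicate 2.

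PGAM1, the phosphoglycerate mutase, could not be compared. It was at 215, 177 and 36.7 FPKM in GapNC and at 196, 38.7 and 178 in GapC9, so that 1 library of each group lay far below the other 2. Its 95% interval ran from -2.23 to 2.20. The 5 rows named as PGAM1 pseudogenes reached at most 0.268 FPKM, so none of them held the difference. RPIA, described further on, had 1 low library of the same kind, GapC9 replicate 2.

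Lactate dehydrogenase is built from the A subunit, which favors the making of lactate, and the B subunit, which favors its use. LDHA was at 93.3, 94.9 and 108 FPKM in GapNC and at 93.1, 102 and 104 in GapC9, a change of 0.02 (SE 0.10). LDHB was at 255, 247 and 252 in GapNC and at 284, 321 and 312 in GapC9, a change of 0.28 (SE 0.08, 95% interval 0.09 to 0.47, adjusted p = 0.0871 by limma). The LDHB groups did not overlap and the GapNC libraries differed by little, whereas the LDHA groups overlapped fully. LDHB was the more abundant subunit per length in all libraries. It passed the threshold after scaling to equal medians (change 0.43, adjusted p = 0.0433 by limma) and not after GC correction (0.24, adjusted p = 0.107 by limma). A pseudogene of LDHA, LDHAP4, is listed at up to 10.8 FPKM, and reads could be split between the copies.

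In the oxidative branch of the pentose phosphate pathway, PGLS opens the lactone made from glucose 6-phosphate and PGD then makes NADPH and ribulose 5-phosphate. PGD was at 55.8, 51.4 and 48.5 FPKM in GapNC and at 40.7, 40.0 and 38.1 in GapC9, a change of -0.39 (SE 0.09, 95% interval -0.61 to -0.17, adjusted p = 0.0602 by limma). The groups did not overlap. PGD missed the threshold in the deposited values and passed it after GC correction (change -0.22, adjusted p = 0.0435 by limma). PGLS was at 4.34 ± 1.57 and 5.52 ± 1.12 FPKM (SD, n = 3 each), with a change of 0.39 (SE 0.31), and was the one gene of the 6 in both branches whose change was above 0. That change ranged from 0.09 without GapNC replicate 3 to 0.63 without GapNC replicate 1, and was 0.24 without GapC9 replicate 1. After GC correction the change of PGLS was 0.76 (adjusted p = 0.0589 by limma).

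In the non-oxidative branch, RPE and RPIA interconvert the pentose phosphates, and TKT and TALDO1 return their carbon to glycolysis. RPE was at 5.17, 3.96 and 4.18 FPKM in GapNC and at 3.28, 2.50 and 2.50 in GapC9, a change of -0.67 (SE 0.17, 95% interval -1.08 to -0.25, adjusted p = 0.0715 by limma). The groups did not overlap, and KANSL1L overlaps exons of RPE on the opposite strand. RPIA was at 24.4, 24.8 and 24.6 in GapNC and at 22.9, 12.3 and 25.7 in GapC9, so its change of -0.34 (SE 0.28) rested on 1 library, without which it was -0.02; without GapC9 replicate 3 it was -0.55. TKT was at 54.4 ± 10.6 and 42.1 ± 3.98 (SD, n = 3 each), a change of -0.35 (SE 0.16, adjusted p = 0.225 by limma), and TALDO1 was at 41.7 ± 4.90 and 38.6 ± 1.42, a change of -0.11 (SE 0.11). Without GapNC replicate 1 the change of TKT was -0.20 and that of TALDO1 was -0.01, and without GapNC replicate 3 that of TALDO1 was -0.17. For TKT, the lowest GapNC library, at 46.4, was just under the highest GapC9 library, at 46.6.

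Phosphoglucomutase links glucose 6-phosphate to glycogen, and FBP1 runs the phosphofructokinase step backwards in gluconeogenesis. PGM2, which acts mainly on pentose phosphates, was at 11.2, 12.04 and 10.9 FPKM in GapNC and at 8.43, 9.43 and 9.07 in GapC9, a change of -0.34 (SE 0.10, adjusted p = 0.103 by limma). The groups did not overlap. After GC correction its change was -0.35 with an adjusted p of 0.037 by limma. PGM1, the main phosphoglucomutase, was at 9.51 ± 2.004 and 7.61 ± 0.874 (SD, n = 3 each), a change of -0.30 (SE 0.19), with overlapping groups. Its change was -0.17 without GapNC replicate 1 and -0.48 without GapNC replicate 3. FBP1 was at 0 to 0.0725 FPKM in the 6 libraries and was not tested.

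HIF1A encodes the oxygen-regulated subunit of HIF-1, which is controlled largely at the protein level. It was at 16.996, 19.6 and 23.6 FPKM in GapNC and at 24.7, 21.3 and 28.8 in GapC9, a change of 0.31 (SE 0.17, adjusted p = 0.302 by limma), with overlapping groups. The change was 0.20 without GapNC replicate 1 and 0.20 without GapC9 replicate 3. Its row also holds SNAPC1.

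**Figure D1:**
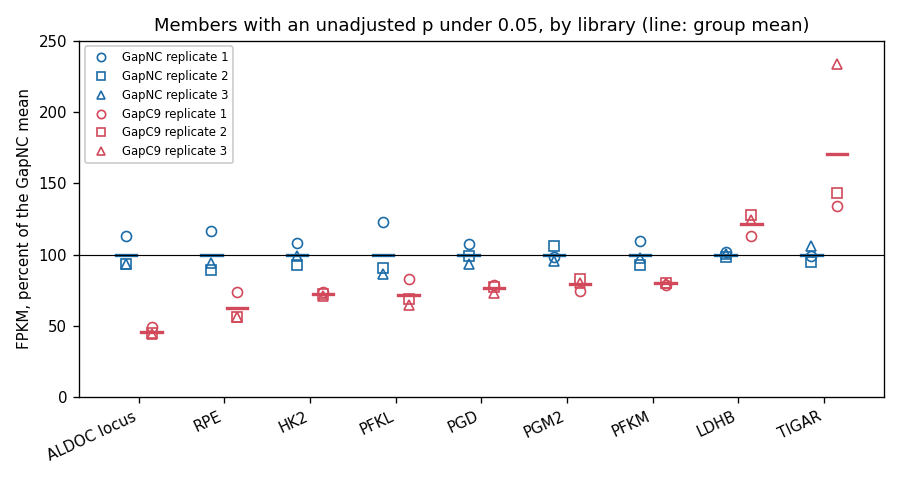
FPKM of the 9 member rows with an unadjusted p under 0.05, as percent of the GapNC mean, in each library (symbols) with the group means (lines). The ALDOC locus lies lowest in GapC9, at a ratio of 0.46 to the GapNC mean, followed by RPE at 0.622, PFKL at 0.72 and HK2 at 0.725, and TIGAR spreads widely in GapC9; HK2 and the ALDOC locus alone have an adjusted p under 0.05.

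Ratios between related enzymes within a library do not depend on how the libraries were scaled. Of 10 ratios, 5 did not overlap between the groups, HK2/HK1, PFKP/PFKL, ALDOC/ALDOA, LDHB/LDHA and TKT/TALDO1. No such share was computed for ratios of other genes, and among single genes and loci tested 34.2% did not overlap. Each of the 5 had p = 0.1 by the two-sided exact permutation test, the smallest that 3 libraries against 3 allow, and an adjusted p of 0.2 over the 10, so no ratio could pass a threshold of 0.05. The ALDOC value in its ratio is that of the joined locus. LDHB/LDHA was 2.74, 2.60 and 2.33 in GapNC and 3.05, 3.16 and 2.99 in GapC9. LDHB thus exceeded LDHA more in every GapC9 library than in any GapNC library. PFKP/PFKL was 1.76, 1.94 and 2.10 in GapNC and 2.30, 2.62 and 2.77 in GapC9. HK2/HK1 was 0.923, 1.15 and 0.997 in GapNC and 0.878, 0.844 and 0.831 in GapC9. The rank of the isozymes within each pair was the same in both groups for phosphofructokinase, aldolase, enolase, lactate dehydrogenase and the PFKFB enzymes, as the plot of ratios shows. Among the other 5 ratios, PFKFB2/PFKFB3 was nearly equal in the groups, at 0.132 ± 0.033 and 0.133 ± 0.017 (SD, n = 3 each).

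The other genes of these pathways were read from 5 lists with 90 genes, of which 74 loci were tested. By the adjusted p, 5 of the 74 fell and 2 rose, beside backgrounds of 5.1% and 1.89%. The list of further enzymes had the lowest median, -0.34 over 23 loci, with 15 of them below 0 and 2 past the threshold. These were PC, pyruvate carboxylase of gluconeogenesis, with a change of -1.17 (SE 0.23, adjusted p = 0.0438 by limma), and DERA, which joins deoxyribose metabolism to the pentose pathway, at -0.57 (SE 0.12, adjusted p = 0.0443 by limma).

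Of 12 sugar and lactate transport genes tested, SLC2A13, the proton myo-inositol carrier, fell from 0.412, 0.560 and 0.626 FPKM in GapNC to 0.146, 0.175 and 0.195 in GapC9 (change -1.21, SE 0.21, adjusted p = 0.033 by limma). SLC2A6, a lysosomal hexose carrier, passed the fold rule but not the adjusted p, with a ratio of 0.462 (adjusted p = 0.0574 by limma). By the adjusted p, 1 of the 12 fell and 0 rose, beside backgrounds of 5.1% and 1.89%. By the fold rule 2 fell, SLC2A13 and SLC2A6, beside a background of 4.32%. The median of the list was -0.01.

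Among 20 HIF targets outside glycolysis, 2 rose and 0 fell at the adjusted p, beside backgrounds of 1.89% and 5.1%. The changes were above 0 for 13 of them and below 0 for 7, with a median of 0.09. P4HA1, a collagen prolyl hydroxylase subunit, rose from 3.52, 4.36 and 4.28 FPKM in GapNC to 7.68, 7.96 and 8.56 in GapC9 (change 0.98, SE 0.12, adjusted p = 0.0192 by limma), and its row also holds the pseudogene RPL17P50. ANKRD37 rose from 0.789, 0.901 and 0.899 to 1.48, 1.48 and 1.28 (change 0.65, SE 0.13, adjusted p = 0.0454 by limma). In the list of 8 HIF regulators none passed, and the median was 0.01.

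Of 11 other regulators, 2 fell and 0 rose at the adjusted p, beside backgrounds of 5.1% and 1.89%. MLXIP, a glucose-sensing partner of MLX, fell from 16.5, 13.7 and 13.1 FPKM in GapNC to 6.26, 4.801 and 5.61 in GapC9 (change -1.36, SE 0.15, adjusted p = 0.0159 by limma, ratio 0.385). PRKAA1, a catalytic subunit of the energy sensor AMPK, fell from 8.01, 12 and 14.2 to 4.12, 4.66 and 5.75 (change -1.19, SE 0.24, adjusted p = 0.0454 by limma, ratio 0.425). Neither gene's groups overlapped, and the median of the list was -0.12. Of the 7 calls in these lists, DERA, PC and ANKRD37 did not pass when any 1 library was left out, and SLC2A13, P4HA1, MLXIP and PRKAA1 passed only in the fit without GapNC replicate 1.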

How the data were processed

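The authors sequenced poly(A) RNA in paired ends and deposited FPKM values from StringTie in 1 table. The submitters' processing notes name Bowtie 0.12.2, HISAT2 2.0 and StringTie 1.3.0 and a mouse build. The human build of the alignment is not given in the sources used here, nor is the use of strand. FPKM is relative to all mapped fragments of a library, and the assembly can join neighbors or list a gene at 0. The 6 value columns were matched to samples by title and 0 were left unused.

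The members and lists were chosen with earlier results of these data known. In R 4.3.3, limma 3.58.1 (lmFit, eBayes with trend) was fitted to log2(FPKM + 0.1), since the table holds no counts. Rows that averaged 0.1 FPKM or more over the 6 libraries were used. The fit was run on simulated data with changes larger than those given here for the members. That run therefore does not cover changes of the size given here. SEs are those of the group difference in the limma fit over the 6 libraries, whose spread borrows from all genes and loci tested. SDs are over the 3 libraries of a group, and counting error is unknown. Python 3.11.15 was used for ratios and figures. GC content came from GENCODE transcripts (GRCh38) for 99.3% of the genes and loci tested. Member genes were given by library where the unadjusted p was under 0.05 or the gene was abundant, and by mean or range otherwise; genes of the other lists were named where they passed the adjusted p or the fold rule.

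Alternatives were pseudocounts of 1 and 0.01, filters at 1 FPKM, none, or no 0, median scaling, quantile normalization, GC correction, a replicate block, limma with robust variances or without the trend, a fitted fold, and leaving out each library.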

Additional observations from a re-analysis of the deposited data

How the results depend on the processing

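The 2 members that fell at the adjusted p were 1 without a filter, after scaling to equal medians and in limma without trend, 4 after GC correction, and 0 to 1 when a library was left out. The 0 that rose became 1 after scaling to equal medians and 0 to 1 when a library was left out. The 1 past the fold rule became 2 with a pseudocount of 1 and 1 to 2 when a library was left out. At the unadjusted p, the 2 higher became 1 without a filter, 9 after GC correction and 1 to 4 when a library was left out, and the 7 lower became 4 after scaling to equal medians. The other pathway genes lower at the adjusted p, 5, became 1 without a filter or after scaling to equal medians, 2 after quantile normalization or without trend, 11 after GC correction, and 0 to 3 when a library was left out. The 2 higher became 4 after scaling, 9 after GC correction, and 0 to 1 when a library was left out. The median change of the members became 0.0698 after scaling to equal medians, -0.135 after quantile normalization, 0.0166 after GC correction, and -0.192 to -0.0234 when a library was left out. The causes were not tested. With replicate numbers as a block, 0 members passed in either direction, as did 0 of the other pathway genes and 0 of all genes. The labels do not say whether same-numbered libraries were prepared together. Their deviations from the group means correlated at 0.097, 0.0398 and 0.0243, and those of differently numbered libraries at -0.093 to 0.0578. With so few libraries these values cannot settle whether the samples were paired. Over all genes and loci, 1120 passed with all libraries and 32 to 810 when a library was left out. HK2 had an adjusted p of 0.0673 without a filter, 0.095 after scaling to equal medians, 0.055 after quantile normalization and 0.0779 without trend (limma); no alternative other than the block and leaving out libraries ended the call of the ALDOC locus.

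Members near 0 changed sign, and so did TALDO1 and PKM, whose reported changes were -0.11 and -0.18. Scaling to equal medians gave 0.0889 for PFKP, 0.131 for PFKFB2, 0.102 for PFKFB3, 0.0698 for ALDOA, 0.0897 for TPI1, 0.114 for GAPDH, 0.129 for PGAM1, 0.0931 for ENO1 and 0.0385 for TALDO1. GC correction gave 0.147 for PFKP, 0.0146 for PFKFB2, 0.206 for PFKFB3, 0.219 for ALDOA, 0.141 for TPI1, 0.199 for GAPDH, 0.159 for PGAM1, 0.119 for ENO1, 0.0117 for PKM and 0.0713 for TALDO1. For the ratios it gave -0.114 for PFKM/PFKL and -0.191 for PFKFB2/PFKFB3. Quantile normalization gave 0.0001 for PFKP, 0.122 for PFKFB2 and 0.0109 for PFKFB3. When a library was left out, changes ranged from -0.087 to 0.141 for GPI, -0.114 to 0.0369 for PFKP, -0.238 to 0.235 for PFKFB2, -0.107 to 0.0325 for PFKFB3, -0.209 to 0.0914 for ALDOA, -0.253 to 0.11 for TPI1, -0.112 to 0.0778 for GAPDH, -0.819 to 0.741 for PGAM1, -0.153 to 0.144 for ENO1 and -0.0234 to 0.0805 for LDHA. The log2 ratio ranged from -0.143 to 0.218 for PFKFB2/PFKFB3 and from -0.179 to 0.111 for PGM2/PGM1. None of these members passed the adjusted p in the reported fit or under any alternative. The table holds no counts, so counting error is unknown.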
